A study of Mus musculus with 3 samples.

Results

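Ccl3, Ccl4, Ccl5 and Xcl1 are chemokine genes whose products natural killer (NK) cells release. They were taken from the gene list by symbol. No measured value entered that rule, but earlier results of these data were known when the genes were chosen. They are 4 of 25906 genes measured and 4 of the 39 chemokine ligand genes on that list. Single-cell RNA sequencing had been run on live NK1.1+NKp46+ cells sorted from lung and blood of wild-type, female, 9-week-old mice. The 3 libraries came from naive mice, from mice killed 6 h after an intravenous injection of 100000 PyMT tumor cells, and from mice killed 14 days after the same injection. PyMT is a mammary tumor line from mice of the C57BL/6 background that carry the polyoma middle T antigen under the MMTV promoter. Each library held cells of both tissues, told apart by a hashtag, an antibody that carries a barcode. The lung had been perfused and digested with enzymes and the blood had not, so tissue and digestion cannot be told apart. No source pairs a tag with a tissue outright: both are named in the same order in the methods, the tags were read by that order, and the direction of every comparison of lung with blood rests on it. There was 1 library per time point and the files do not tie cells to mice, so no test of a time point, or of tissue within a library, could be made, and time point and library cannot be told apart. Lung against blood could be tested only as an average over the 3 libraries. Every interval given here is a 95% interval that covers counting error only.

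Chemokines are small secreted proteins that attract leukocytes along a gradient. The products of Ccl3, Ccl4 and Ccl5 attract T cells, NK cells, monocytes and dendritic cells, and that of Xcl1 binds Xcr1, a receptor carried by the dendritic cells that cross-present antigen to CD8+ T cells. NK cells are known to hold transcripts of these genes before stimulation and to release the proteins rapidly once an activating receptor or a cytokine engages them. Together with interferon gamma they are among the products by which NK cells recruit other leukocytes to tumors.

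Ccl3 (ENSMUSG00000000982), Ccl4 (ENSMUSG00000018930) and Ccl5 (ENSMUSG00000035042) lie in the chemokine cluster of chromosome 11, and Xcl1 (ENSMUSG00000026573) lies apart from them on chromosome 1. In the GENCODE M21 annotation of GRCm38, Ccl3 spans chr11:83647844-83649355 on the minus strand, Ccl4 spans chr11:83662584-83664683 on the plus strand, Ccl5 spans chr11:83525778-83530518 on the minus strand and Xcl1 spans chr1:164931644-164935527 on the minus strand. Each gene has 3 exons. Ccl3 and Ccl4 are neighbours that run in opposite directions, with 13228 bases between them, whereas 117325 bases separate Ccl5 from Ccl3.

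The promoters of Ccl3 and Xcl1 are printed because RefSeq promoters on GRCm38.p6 were given for only these 2 of the 4 genes. Both genes differed by maturation class, as described below. In cells with Cd27 only, Ccl3 was lower and Xcl1 higher than in cells with Itgam only in all 6 groups. Ccl5 was also lower in these cells in all 6 groups. Ccl4 and Ccl5 are named only. Both sequences are the 250 bases before the RefSeq start, 5′ to 3′ on the strand of the gene, at chr11:83649379-83649628 and chr1:164935523-164935772. Capitals mark the motifs that were found among the 8 searched on both strands.
Ccl3 promoter: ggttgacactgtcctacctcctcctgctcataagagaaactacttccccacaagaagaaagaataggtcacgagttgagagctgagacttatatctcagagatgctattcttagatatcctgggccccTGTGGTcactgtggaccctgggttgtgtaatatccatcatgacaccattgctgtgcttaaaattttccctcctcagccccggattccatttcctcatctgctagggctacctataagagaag
Xcl1 promoter: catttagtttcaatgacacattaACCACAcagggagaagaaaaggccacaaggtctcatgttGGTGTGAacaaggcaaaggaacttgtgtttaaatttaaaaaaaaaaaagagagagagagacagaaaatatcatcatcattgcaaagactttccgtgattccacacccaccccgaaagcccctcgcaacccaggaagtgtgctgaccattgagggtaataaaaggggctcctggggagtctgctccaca
The Ccl3 window held the Runx motif TGTGGT at 122 to 117 bases before the start. The Xcl1 window held the same motif on the other strand, read as ACCACA, at 227 to 222 bases, and the T-box motif GGTGTGA at 188 to 182 bases before the start. Of 32851 promoters of the same length, 14.0% held the Runx motif and 3.33% the T-box motif. The other motifs searched were AP-1 (TGA and TCA with 1 base between them, in 6.75% of promoters), CRE (TGACGTCA, 1.55%), NF-kB (GGG and CC with 5 bases between them, 45.8%), NFAT (TGGAAA, 18.6%), the TATA box (spelled TATAAA, 12.4%) and IRF (GAAA at both ends with 2 bases between them, 2.98%). The letters of these 6 motifs were not in either window, and the matches are a description of letters, not of binding.

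The 6 groups of cells were lung and blood of each library. They held 2069 to 4680 cells, 21113 in all, with a median of 5909.5 to 7524 UMIs per cell (counted RNA molecules) and 16936897 to 35922737 UMIs in total, lowest in 14-day blood. The 8 NK markers looked at were all above 50 CPM (UMIs of a gene per 1000000 UMIs of the group), and Ncr1, the gene of NKp46, lay between 665 and 1533. Several markers of other cells were low: Fcer1a and Ms4a2, genes of basophils and mast cells, were at 0 in all groups. The summed level of 5 erythroid markers was 1.48 to 2.57 CPM in 5 groups and 90.002 CPM in 14-day lung. Other markers, listed for T, myeloid, endothelial or B cells, were not low. Trbc1 lay at 266 to 336 CPM, Trbc2 at 156 to 239, Cst3 at 96.9 to 113, Pecam1 at 49.4 to 82.5 and Ighm at 34.1 to 55.4. The macrophage gene Lyz2 lay between 0.6004 CPM in naive blood and 89.3 CPM in 14-day blood. Between libraries, 6 to 16 cell barcodes were shared by a pair. The part of these values in the differences below was not tested.

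Ccl5 was by far the most abundant of the 4 transcripts and Xcl1 was the one that varied most among groups. The level of a gene is given as CPM, its summed UMIs scaled to the total of the group. The kit counts the 3′ end of each transcript, so levels were not divided by length. Ccl5 reached 13197 CPM in naive lung, 12245 in naive blood, 13301 in 6 h lung, 12140.5 in 6 h blood, 12093 in 14-day lung and 18667 in 14-day blood. It ranked number 3 among all genes in each of the 6 groups, and 5 of them lay close together, with 14-day blood above them. Ccl5 made up 83.3 to 91.5% of the UMIs of the 4 genes, which together took 1.42 to 2.04% of all UMIs.

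Ccl4 reached 1302 CPM in naive lung, 1298 in naive blood, 1504 in 6 h lung, 1458 in 6 h blood, 1118 in 14-day lung and 1172 in 14-day blood. Both tissues were highest at 6 h and lowest at 14 days, over a narrow range. Ccl3, its neighbour on the chromosome, reached 262 CPM in naive lung, 280.4 in naive blood, 263 in 6 h lung, 263 in 6 h blood, 314 in 14-day lung and 214 in 14-day blood. The levels in both tissues were alike at 6 h and farthest apart at 14 days, when lung was the highest of the 6 groups and blood the lowest. The ratio of Ccl4 to Ccl3 in CPM was 4.63 to 5.71 in 5 groups and 3.56 in 14-day lung.

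Xcl1 reached 271 CPM in naive lung, 422 in naive blood, 503 in 6 h lung, 709 in 6 h blood, 862 in 14-day lung and 349.8 in 14-day blood. In order, naive lung was lowest, followed by 14-day blood, naive blood, 6 h lung, 6 h blood and 14-day lung. The counting intervals of neighbours in that order did not overlap, but they leave out the spread among cells and among mice. Over cells thinned at random to equal depth, the variance of Xcl1 counts was 9.10 times their mean in naive lung. It was 27.9 times the mean in 14-day lung, and the other groups lay between. Whether neighbours in the order differ beyond that spread was not tested. Lung lay below blood in the naive and 6 h libraries and above it in the 14-day library.

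**Figure D1:**
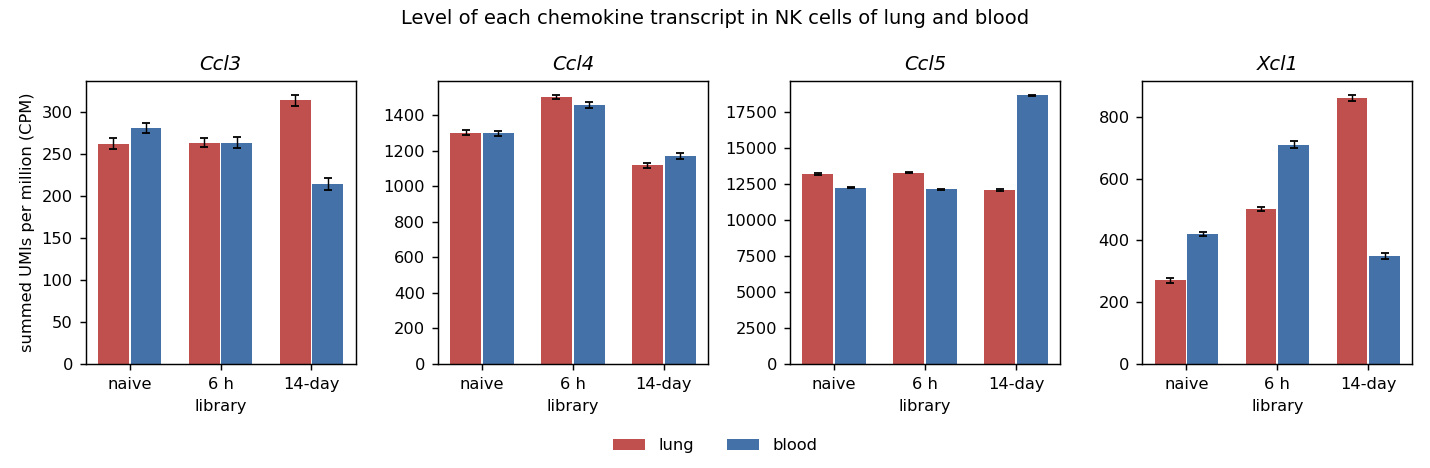
Level of each gene (CPM, linear axis from 0, a separate scale for each gene) by library, with a bar for each tissue and error bars for 95% Poisson intervals. Ccl5 stands out in 14-day blood at 18667 CPM, and Xcl1 is below blood in naive and 6 h lung but above it in 14-day lung (862 against 349.8 CPM).

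The comparison of lung with blood in each library asks how NK cells of the organ where the tumor cells lodge differ from those in circulation. A gene counted as past the fold where its CPM ratio was 1.5-fold or more in either direction and the higher of both groups reached 50 CPM. In naive mice, 9.88% of 4067 genes were past it, and 1 of the 4 chemokines was: Xcl1 was 1.56-fold lower in lung than in blood, with a log2 ratio of lung over blood of -0.64 (-0.68 to -0.60). The log2 ratios of Ccl3 (-0.10), Ccl4 (0.00) and Ccl5 (0.11) lay near the median of all genes, -0.07. At 6 h, 8.99% of 3948 genes and none of the 4 chemokines were past the fold. Xcl1 was again lower in lung, with a log2 ratio of -0.50 (-0.53 to -0.47), and that of Ccl5 was 0.13.

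At 14 days, 9.46% of 3711 genes were past the fold, and Ccl5 and Xcl1 were among them in opposite directions. Xcl1 was 2.46-fold higher in lung, with a log2 ratio of 1.30 (1.26 to 1.34), and 98.0% of the genes had a lower ratio. That ratio was -0.43 without cells that held 2 or more UMIs of a marker list of another cell type, a filter that left out 70.5 to 81.7% of cells of a group, and 1.39 without cells that held rare markers of other types. Ccl5 was 1.54-fold lower in lung, with a log2 ratio of -0.63 (-0.63 to -0.62), and 2.75% of the genes had a lower ratio. Ccl3 had a log2 ratio of 0.55 (0.50 to 0.61), short of 1.5-fold, and Ccl4 one of -0.07 (-0.09 to -0.04), near the median of all genes at -0.10.

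As an average over the 3 libraries, none of the 4 chemokines differed between lung and blood beyond the spread of the tissue difference among libraries. The 6 summed profiles were fitted with library and tissue as terms by edgeR's quasi-likelihood test with Benjamini-Hochberg adjustment, and 25.1% of 4207 genes passed an adjusted p of 0.05, 648 of them higher in lung and 406 lower. The log2 ratio of lung over blood was 0.21 (SE 0.16, adjusted p = 0.36) for Ccl3 and 0.06 (SE 0.07, adjusted p = 0.54) for Ccl4. It was -0.06 (SE 0.18, adjusted p = 0.81) for Ccl5 and 0.10 (SE 0.45, adjusted p = 0.88) for Xcl1. The libraries differ in time point, so a tissue difference that changes with time adds to the spread in this fit, which was chosen after the data had been seen. Without the 14-day library the log2 ratios were -0.0072 for Ccl3, 0.07 for Ccl4, 0.16 for Ccl5 and -0.52 for Xcl1. Those of Ccl4, Ccl5 and Xcl1 passed the test on 1 residual degree of freedom, where 2511 of the 4207 genes passed.

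The reading of the hashtags bears on the sign of each of these ratios. Itga1, an integrin of tissue residence, was at 14.5 CPM in the cells read as lung and 16.5 in those read as blood in the naive library, at 12.2 and 16.8 at 6 h, and at 70.8 and 31.5 at 14 days. Dusp1 and Fos, both immediate early genes, were higher in the cells read as lung in each library. Dusp1 was at 196, 217 and 147 CPM there and at 8.91, 10.1 and 8.21 in the cells read as blood.

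The comparisons with the naive library ask how the transcripts stood during the early clearing of tumor cells and once metastases had grown. The comparisons at 6 h and at 14 days share the naive library. At 6 h hardly any gene differed by 1.5-fold, 0.231% of 3889 genes in lung and 0.153% of 3910 genes in blood, and Xcl1 was past the fold in both tissues. In lung it was 1.86-fold higher than in naive lung, with a log2 ratio of 0.89 (0.85 to 0.93), and it was 1 of 9 genes past the fold, all of them higher. In blood it was 1.68-fold higher, with a log2 ratio of 0.75 (0.72 to 0.78), and it was 1 of 6 genes past the fold. Ccl4 had log2 ratios of 0.21 (0.19 to 0.23) in lung and 0.17 (0.15 to 0.19) in blood, against medians of all genes of -0.09 and -0.07. Ccl3 and Ccl5 had log2 ratios of 0.01 each in lung, and of -0.09 and -0.01 in blood.

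At 14 days, 17.9% of 3939 genes were past the fold in lung, 176 of them higher and 528 lower, and 3.59% of 3902 genes were past it in blood. In lung, Xcl1 was past the fold: it was 3.18-fold higher than in naive lung, with a log2 ratio of 1.67 (1.63 to 1.71). In blood, the log2 ratio of Xcl1 was -0.27 (-0.31 to -0.22), near the median of all genes at -0.20. Ccl5 showed the reverse arrangement. In blood it was 1.52-fold higher than in naive blood, with a log2 ratio of 0.61 (0.60 to 0.62), above 99.5% of genes, while its log2 ratio in lung was -0.13 (-0.13 to -0.12), against a median of -0.25. The log2 ratio of Ccl3 was 0.26 (0.21 to 0.31) in lung and -0.39 (-0.45 to -0.33) in blood, and that of Ccl4 was -0.22 in lung and -0.15 in blood.

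**Figure D2:**
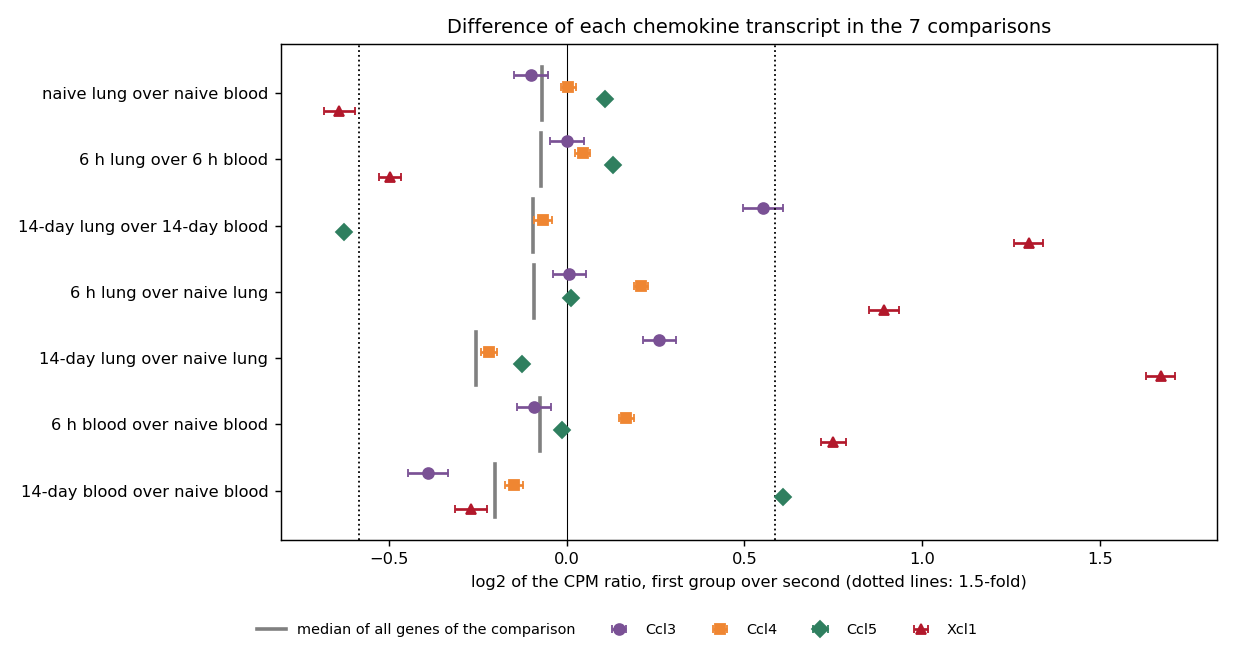
Log2 ratio of the CPM of each gene (horizontal axis) in the 7 comparisons (rows), with bars for 95% counting intervals, grey bars for the median of all genes and dotted lines at 1.5-fold. Xcl1 lies farthest from the grey bars in 6 of the 7 rows, up to 1.67 for 14-day over naive lung, and Ccl5 does so in 14-day over naive blood at 0.61.

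The 4 transcripts were spread over the cells in different ways. Shares of cells are given after each cell was thinned at random to 3000 UMIs, so that deeper cells do not count as positive more often. Ccl5 was found in 96.9 to 99.9% of cells in all groups, but free RNA alone could leave a Ccl5 UMI in up to 83.0% of cells of the naive, 89.0% of the 6 h and 32.6% of the 14-day library, so counts of 10 or more UMIs describe it better. At least 10 Ccl5 UMIs were held by 97.5% of cells in naive lung, 96.9% in naive blood, 96.6% in 6 h lung, 96.3% in 6 h blood, 77.0% in 14-day lung and 98.7% in 14-day blood. Nearly all cells thus held many Ccl5 molecules, except in 14-day lung. There the 10% of cells with least Ccl5 had 3 UMIs or fewer, against limits of 15 to 23 in the other groups, while the median of 32 UMIs was close to the 35 to 38 of the naive and 6 h groups. The median in 14-day blood was 52. The variance of Ccl5 counts was 31.1 times their mean in 14-day lung and 10.6 to 17.5 times in the other groups.

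Ccl4 was found in 64.7% of cells in naive lung, 46.2% in naive blood, 65.5% in 6 h lung, 49.7% in 6 h blood, 50.3% in 14-day lung and 45.6% in 14-day blood. Before thinning the shares were 76.1, 61.2, 79.4, 66.5, 63.6 and 64.5%. The share of cells in which free RNA alone could leave a Ccl4 UMI was 15.5% or less in the naive, 19.6% or less in the 6 h and 2.84% or less in the 14-day library. In the naive and 6 h libraries more lung than blood cells held Ccl4, although the CPM in both tissues were nearly equal. Blood held more cells of very high counts. At least 50 Ccl4 UMIs were held by 0.641, 1.12 and 0.848% of lung cells in the naive, 6 h and 14-day libraries, and by 2.10, 2.35 and 2.04% of blood cells.

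The 10% of cells with most Ccl4 held 55.3% of its UMIs in naive lung, 59.1% in 6 h lung and 68.2% in 14-day lung. In blood they held 82.3, 82.2 and 83.8% in the same order. Ccl4 counts varied more over cells than those of nearly any other gene: their variance was 16.4, 25.1 and 32.6 times the mean in lung and 54.0, 58.8 and 59.8 times in blood. This ratio was ranked among the 3432 to 3830 genes with at least 50 CPM in a group. That of Ccl4 was number 1 in the naive and 6 h groups and number 2 in the 14-day groups. Genes of like mean had a median ratio of 1.49 to 1.69. The other members also ranked high, Ccl3 at number 2 to 8, Ccl5 at 2 to 5 and Xcl1 at 2 to 5.

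**Figure D3:**
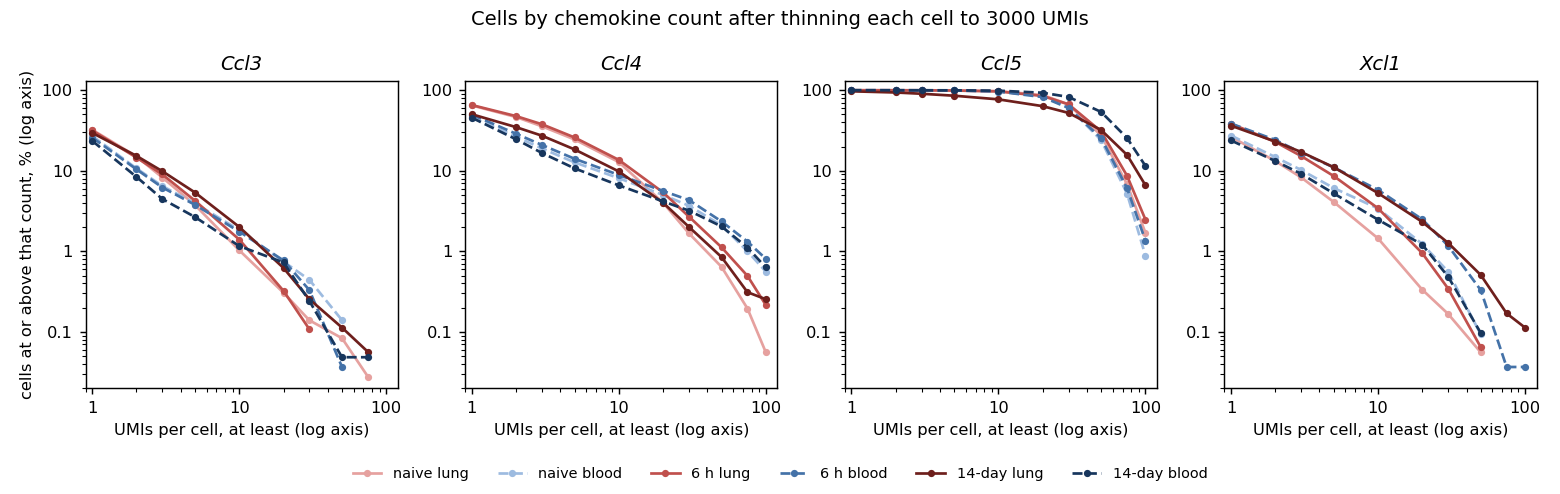
Share of cells (vertical log axis, %) with at least a given number of UMIs of each gene (horizontal log axis) after thinning to 3000 UMIs per cell, with solid lines for lung, dashed lines for blood and points at 0 not drawn. The Ccl4 lines of blood start below those of lung at 1 UMI in the naive library (46.2 against 64.7%) and end above them at 50 UMIs (2.10 against 0.641%), and 14-day lung leaves the other Ccl5 lines at low counts.

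Ccl3 was found in fewer cells: 32.3% in naive lung, 27.0% in naive blood, 31.7% in 6 h lung, 25.9% in 6 h blood, 29.5% in 14-day lung and 23.5% in 14-day blood. Before thinning the shares were 46.1, 40.7, 49.4, 42.5, 42.0 and 41.0%, and the limit from free RNA was 3.79, 4.39 and 0.878% of cells in the 3 libraries. Lung lay above blood in each library. At least 10 Ccl3 UMIs were held by 1.03 to 2.01% of cells.

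Xcl1 was found in 26.4% of cells in naive lung, 27.4% in naive blood, 38.4% in 6 h lung, 38.6% in 6 h blood, 36.3% in 14-day lung and 23.8% in 14-day blood. Before thinning the shares were 35.7, 38.1, 52.1, 53.3, 47.8 and 33.6%, and the limit from free RNA was 4.55, 9.13 and 1.59% of cells. The intervals of the shares in lung and blood overlapped in the naive and in the 6 h library, so that the higher Xcl1 level of blood there lay in the cells with most of it. At least 10 Xcl1 UMIs were held by 1.45% of cells in naive lung against 3.40% in naive blood, and by 3.43% in 6 h lung against 5.80% in 6 h blood. At 14 days the order was the other way round, with 5.29% in lung and 2.47% in blood.

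Cells that held none of Ccl3, Ccl4 and Xcl1 made up, after thinning, 21.2, 17.3 and 25.1% of lung cells and 36.2, 30.01 and 38.2% of blood cells of the naive, 6 h and 14-day libraries. Cells that held all 3 made up 6.64 to 10.8%. In each library, cells with none were less common in lung than in blood.

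Cells with high Ccl3 counts mostly held high Ccl4 counts. Their correlation over cells within a group, on the scale of log counts per 10000 UMIs, had a median of 0.57 over the 6 groups and ranged from 0.38 to 0.63. All correlations over cells are descriptions, since the cells of a group share a library and their counts share each cell's depth. Among cells with at least 10 Ccl3 UMIs, 75.7, 73.8 and 81.7% also held at least 10 Ccl4 UMIs in naive, 6 h and 14-day lung, against 12.2, 12.8 and 8.34% of the remaining lung cells. In blood the shares were 91.1, 93.75 and 95.8%, against 6.53, 7.36 and 5.54%. These cells were few, 24 to 79 in a group. The reverse shares were lower: of the cells with at least 10 Ccl4 UMIs, 6.09, 7.58 and 16.7% in lung and 20.7, 18.6 and 16.9% in blood held at least 10 Ccl3 UMIs.

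The relation of Xcl1 to Ccl4 and Ccl5 over cells varied among the groups. The correlation of Xcl1 with Ccl4 had a median of 0.31 (range 0.09 to 0.46), and with Ccl5 of -0.14 (range -0.47 to -0.08). In naive blood, 74.0% of the 146 cells with at least 10 Xcl1 UMIs held at least 10 Ccl4 UMIs, against 5.76% of the remaining cells. In 14-day lung, where 187 cells held at least 10 Xcl1 UMIs, the share was 31.6% against 8.60%, but any Ccl4 UMI was found in 47.4% of cells with Xcl1 and 52.0% of cells without it.

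Xcl1 and Ccl5 were farthest apart in 14-day lung. There the 187 cells with at least 10 Xcl1 UMIs had a mean of 16.5 Ccl5 UMIs, against 40.8 in the remaining cells, and 41.7% of them held at least 10 Ccl5 UMIs, against 79.0%. In the 14-day blood of the same library, 51 cells held at least 10 Xcl1 UMIs and had a mean of 62.0 Ccl5 UMIs, against 58.0 in the remaining cells. In naive blood the means were 40.1 and 37.9 Ccl5 UMIs and in 6 h blood 41.0 and 38.1. In naive lung they were 35.7 and 40.6, and in 6 h lung 40.4 and 41.8. At 10 or more Xcl1 UMIs the means of both tissues thus lay in opposite orders in each library, a difference that could not be tested. The means lay near each other in 6 h lung, where 159 cells held at least 10 Xcl1 UMIs. The spread of Ccl5 among cells was not taken into account in these orders. Cells with any Xcl1 UMI had fewer Ccl5 UMIs than cells without it in both tissues. The means were 22.8 against 49.0 in 14-day lung and 48.7 against 61.0 in 14-day blood. For naive and 6 h blood they were 34.5 against 39.3 and 35.3 against 40.1.

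NK cells of mice mature from cells with the surface receptor CD27 to cells with the integrin CD11b, the product of Itgam. Cells were put into 4 classes by whether a UMI of Cd27 or Itgam was seen after thinning, and the level of each class was taken from all UMIs of its cells. Such classes are ranges of detection and not cell types, since a cell with no UMI may still carry the protein. Cells with Cd27 only made up 6.63 to 9.47% of a group, and cells with neither 31.8 to 51.9%, most in 14-day lung.

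Xcl1 was higher in cells with Cd27 only than in cells with Itgam only in all 6 groups. The levels were 572 against 182 CPM in naive lung, 683 against 276 in naive blood and 823 against 362 in 6 h lung. They were 1095 against 525 CPM in 6 h blood, 1602 against 296 in 14-day lung and 621 against 280.0 in 14-day blood. The log2 ratio lay between 1.06 and 1.31 in 6 h lung and the 3 groups of blood, at 1.65 in naive lung and at 2.44 in 14-day lung, where it was widest.

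Ccl5 stood the other way round. Cells with Cd27 only had 10252 CPM of Ccl5 in naive lung, against 14099 in cells with Itgam only, and the log2 ratio lay between -0.69 and -0.35 in 5 groups. In 14-day lung the levels were 5826 and 17027 CPM, a log2 ratio of -1.55 (-1.57 to -1.52). Ccl3 was lower in cells with Cd27 only in all 6 groups, with log2 ratios of -1.35 to -0.72. Ccl4 was lower there in 5 groups, by log2 ratios down to -0.85, with 1401 against 1365 CPM in 6 h blood.

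**Figure D4:**
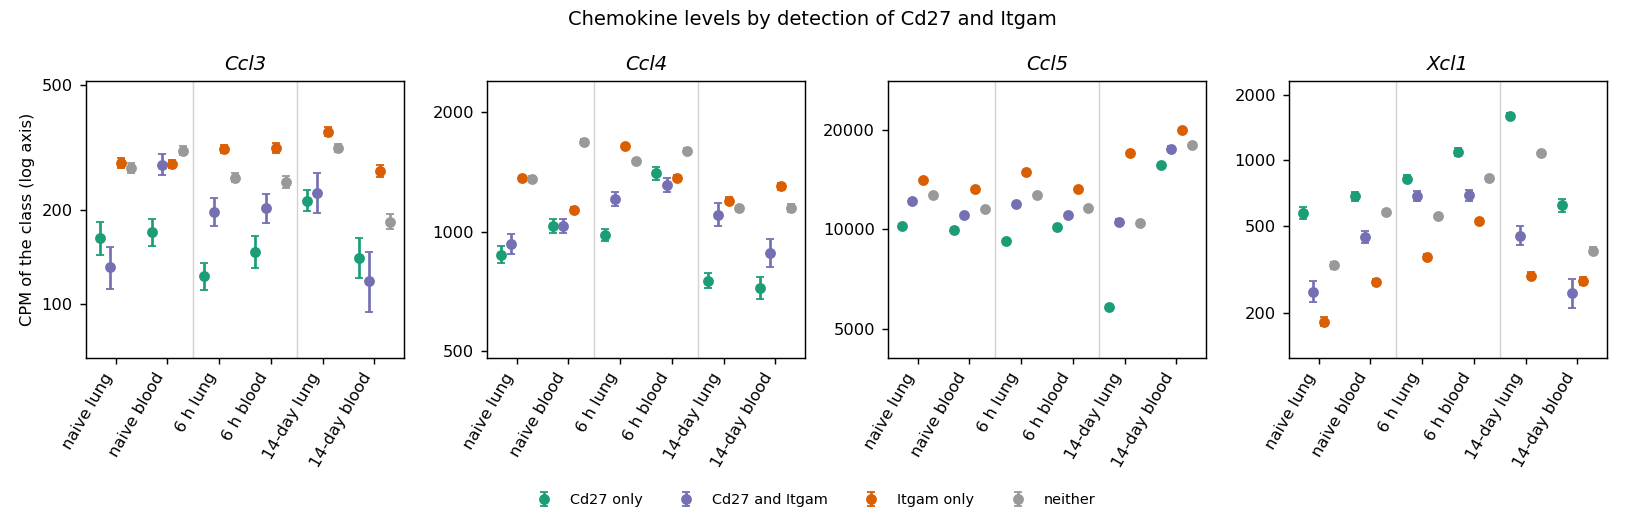
Level of each gene (CPM, log axis) in cells with Cd27 only, Cd27 and Itgam, Itgam only or neither, in the 6 groups, with bars for 95% Poisson intervals. Xcl1 is highest in cells with Cd27 only in every group, and Ccl5 of these cells is lowest in 14-day lung at 5826 CPM.

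Within the classes, the differences among groups were as follows. Xcl1 of 14-day lung over 14-day blood had a log2 ratio of 1.37 (1.26 to 1.48) in cells with Cd27 only, 0.88 (0.62 to 1.15) in cells with both, 1.49 (1.43 to 1.55) in cells with neither and 0.08 (-0.00 to 0.16) in cells with Itgam only. The difference between the tissues at 14 days was therefore seen in 3 of the 4 classes. Against naive lung, Xcl1 of 14-day lung was higher in all 4 classes. The log2 ratios were 1.49 with Cd27 only, 0.86 with both, 0.70 with Itgam only and 1.72 with neither. For 14-day over naive blood they were -0.14, -0.85, 0.02 and -0.58 in the same order. At 6 h, Xcl1 was above its naive level in all 4 classes of both tissues. The log2 ratios of 6 h over naive lung were 0.53 in cells with Cd27 only, 1.45 in cells with both, 0.99 in cells with Itgam only and 0.75 in cells with neither. In blood they were 0.68, 0.64, 0.93 and 0.52 in the same order.

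Ccl5 of 14-day over naive blood was alike in the 4 classes, with log2 ratios of 0.65 in cells with Cd27 only, 0.67 in cells with both, 0.59 in cells with Itgam only and 0.64 in cells with neither. The log2 ratio of Ccl5 for 14-day lung over 14-day blood was not alike. It was -1.42 (-1.45 to -1.39) in cells with Cd27 only, -0.73 in cells with both, -0.79 in cells with neither and -0.23 (-0.24 to -0.22) in cells with Itgam only.

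Cells with both Klrg1 and Cx3cr1, receptors of late maturation, made up 6.62 to 13.2% of a group. In all 6 groups they had more Ccl5 than the remaining cells, by log2 ratios of 0.46 to 1.19, and less Xcl1, by log2 ratios of -3.10 to -1.04. In 14-day lung, 242 cells (6.84% of those thinned) held Itga1, an integrin of tissue residence, together with Pmepa1, a target gene of TGF-beta. They had 138 CPM of Ccl3, 513 of Ccl4 and 5284 of Ccl5, against 326, 1160 and 12550 CPM in the remaining cells, while Xcl1 was 1059 against 851 CPM. Cells with Cxcr6 and Tmem176b, genes of type 1 innate lymphoid cells, numbered 3 to 12 in a group. In 14-day blood, where there were 12, they had 51.7 CPM of Ccl4 against 1179 and 838 CPM of Xcl1 against 347 in the remaining cells. These 12 cells held 0.0252% of the Ccl4 UMIs and 1.37% of the Xcl1 UMIs of the group, so a single cell can shift both values.

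Nr4a1 is an early gene of receptor signalling, and in blood its detection divided Ccl3 and Ccl4 more sharply than that of Cd27 and Itgam did. After thinning, 34.3% of naive lung cells held an Nr4a1 UMI, 30.3% of 6 h lung cells and 20.8% of 14-day lung cells. In blood the shares were 6.64, 5.98 and 4.22%. Blood cells with Nr4a1 were thus few, 285, 163 and 87 cells, and very high in both chemokines.

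Ccl4 reached 8111, 9100.1 and 10398 CPM in naive, 6 h and 14-day blood cells with Nr4a1, against 808, 976 and 754 in those without. In lung the levels were 1838, 2267 and 2306 CPM with Nr4a1, against 1011, 1148 and 773 without. Cells with Nr4a1 held 36.9 to 49.4% of all Ccl4 UMIs of a group. In blood, 42.0, 36.9 and 38.5% of the Ccl4 UMIs of the 3 libraries were therefore found in 6.64% of cells or fewer. Ccl3 followed the same pattern, with 1747, 1757 and 2056 CPM in blood cells with Nr4a1 against 174, 169 and 131 in those without.

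Xcl1 was also higher with Nr4a1 in all 6 groups, by log2 ratios of 0.58 to 2.36. The levels were 1692 against 330.2 CPM in naive blood, 2646 against 589 in 6 h blood and 1488 against 298 in 14-day blood. Ccl5 was nearly the same in cells with and without Nr4a1, with log2 ratios of -0.07 to 0.18. The near-equal Ccl4 levels of lung and blood thus went with unlike levels by Nr4a1 class. The part of the lung digestion in these classes was not tested. Among cells without Nr4a1, the log2 ratio of lung over blood for Ccl4 was 0.32 (0.29 to 0.35) in the naive, 0.23 (0.21 to 0.26) in the 6 h and 0.04 (0.00 to 0.07) in the 14-day library. Among cells with Nr4a1 it was -2.14, -2.00 and -2.17. For Xcl1 the log2 ratio of lung over blood was -0.52, -0.48 and 1.30 without Nr4a1 in the same order of libraries. With Nr4a1 that of Xcl1 was -2.29, -1.97 and -0.19.

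**Figure D5:**
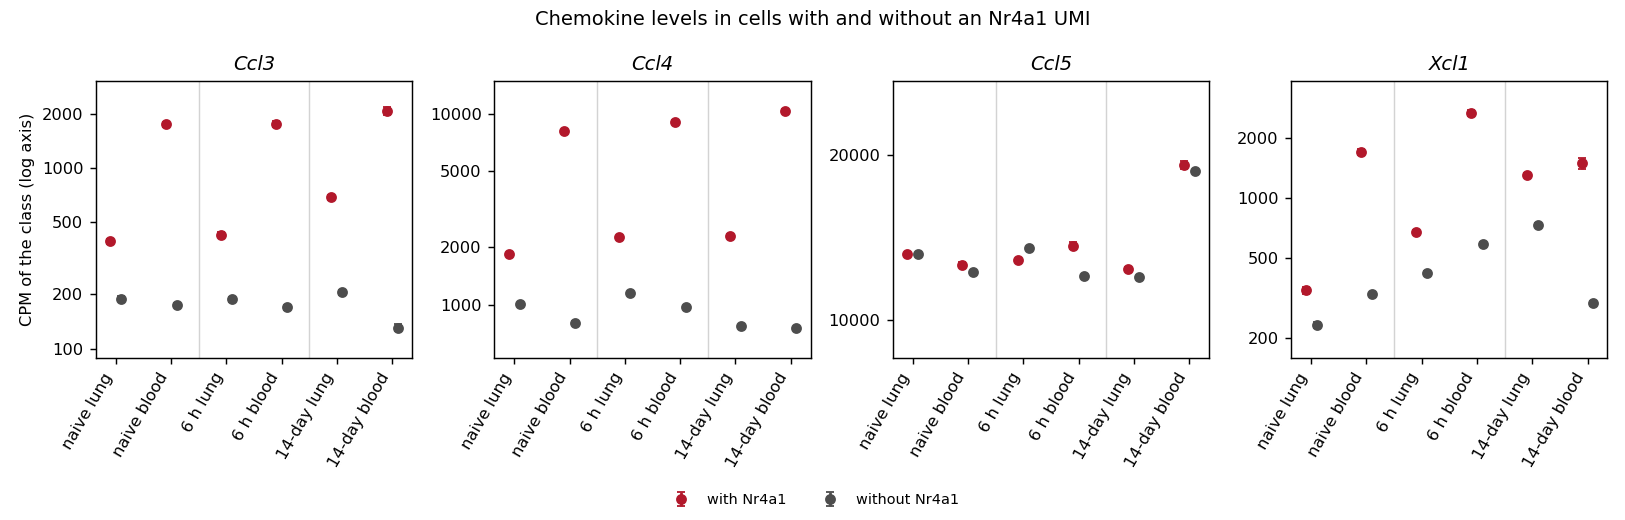
Level of each gene (CPM, log axis) in cells with and without a UMI of Nr4a1 after thinning, in the 6 groups, with bars for 95% Poisson intervals that are mostly smaller than the points. Ccl3 and Ccl4 are farthest apart in blood, where Ccl4 reaches 8111 to 10398 CPM with Nr4a1, and the points of Ccl5 nearly coincide in each group.

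Many immediate early genes were higher in lung. Of the 22 genes listed, 12 of the 15 at 50 CPM or more were at least 1.5-fold higher in lung than in blood in the naive library, 14 of 17 at 6 h and 14 of 16 at 14 days, with median log2 ratios of 1.63, 1.57 and 1.93. The shares of all genes past the fold were 9.88, 8.99 and 9.46%. Dusp1, a phosphatase gene, was at 196 CPM in naive lung and 8.91 in naive blood, and Fos, a subunit of AP-1, at 80.3 and 12.8 CPM. Others stood the other way round in the naive library, with Egr1 at 23.8 CPM in lung and 48.1 in blood, Egr3 at 6.65 and 20.9 and Nfkbid at 36.7 and 51.0. They did so at 6 h as well, with Egr1 at 20.7 and 33.2, Egr3 at 6.40 and 21.2 and Nfkbid at 47.5 and 56.8. At 14 days each of them was higher in lung. Of 6 heat shock genes, 3, 4 and 3 reached 50 CPM in the naive, 6 h and 14-day comparisons, and none of those was past 1.5-fold between lung and blood. Below that level, in the 14-day library, Hspa1b was at 41.9 CPM in lung and 1.004 in blood and Hspa1a at 22.1 and 0.649. Lung cells had been digested and blood cells had not, and the part of the digestion in the Nr4a1 classes and in the chemokine levels was not tested. Without cells that held a UMI of Fos or Egr1, which left out 32.6, 32.6 and 35.2% of lung cells and 8.70 to 10.9% of blood cells, the log2 ratios of lung over blood were 0.57, 0.81 and 0.90 for Ccl3 and 0.43, 0.59 and -0.02 for Ccl4 in the naive, 6 h and 14-day libraries.

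Detection of Ifng, the gene of interferon gamma, divided the members in a similar order. Cells with an Ifng UMI made up 14.4 to 23.6% of a group. In all 6 groups they were higher in Ccl3, by log2 ratios of 1.18 to 2.12, in Ccl4, by 0.98 to 1.75, and in Xcl1, by 0.30 to 1.10. For Ccl5 the log2 ratio lay between -0.02 and 0.22. Cells with Ifng held 39.8 to 47.5% of the Ccl3 UMIs of a group.

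The genes most like each member over the cells were named as the 6 with the highest median correlation over the 6 groups, among 6176 genes found in at least 10% of cells of every group. For Ccl3 they were Ccl4 (0.57), Ifng (0.27), Irf8, Nr4a2, Nfkbid and Ier2. For Ccl4 they were Ccl3, Irf8 (0.37), Xcl1, the perforin gene Prf1 (0.30), Nr4a2 and Tnfrsf9. Both lists hold activation genes, and Irf8 and Nr4a2 stand in both.

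For Ccl5 they were the granzyme gene Gzma (0.35, range 0.31 to 0.68), Cma1, Klrg1 (0.31), Nkg7, Prf1 and Fau, which encodes a ribosomal protein, and of these Gzma, Cma1, Nkg7 and Prf1 encode granule proteins. For Xcl1 they were Tnfrsf9 (0.40, range 0.31 to 0.48), Bcl2a1b, Srgn, Serpina3g, Ccl4 and Cd160. Tnfrsf9 encodes the costimulatory receptor 4-1BB, and Srgn encodes serglycin, the proteoglycan on which granule proteins and chemokines are stored. Gzma, the gene most like Ccl5, had a median correlation of -0.32 with Xcl1 and was among the 6 genes least like it. With rank correlations, 2 of the 6 genes named for Ccl3, 3 of those for Ccl4, 5 of those for Ccl5 and 5 of those for Xcl1 were again among the 6 highest.

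Of the 39 chemokine ligand genes, 5 reached 50 CPM in any group and 11 were at 0 in all groups. The fifth was Cxcl10, a ligand of Cxcr3 that interferon induces, at 3.71 CPM in naive lung, 0.4003 in naive blood, 12.6 in 6 h lung, 2.04 in 6 h blood, 57.4 in 14-day lung and 1.18 in 14-day blood. It was higher in lung than in blood in each library. Of the markers listed for myeloid cells, C1qa and C1qb were also highest in 14-day lung, at 5.08 and 5.00 CPM. They were at most 0.139 CPM in the other groups, whereas Lyz2 was highest in 14-day blood. Whether other cells added to the level of Cxcl10 was not tested. Xcr1, the receptor of the Xcl1 product, was at most 0.167 CPM in the sorted cells.

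Of 9 cytokines looked at beside the chemokines, Ifng and Ltb reached 50 CPM. Ifng was at 117, 127 and 114 CPM in naive, 6 h and 14-day lung and at 81.7, 85.3 and 64.3 CPM in blood. Ltb, which encodes lymphotoxin beta, was at 19.8, 38.4 and 131 CPM in lung and at 37.0, 62.3 and 51.4 CPM in blood. Its order resembled that of Xcl1, with lung below blood in the naive and 6 h libraries and above it at 14 days. Srgn was at 808, 856 and 1202 CPM in lung and at 578, 651 and 638 CPM in blood. Of 10 transcription factors of NK maturation, 4 were at least 1.5-fold lower in 14-day lung than in naive lung and 1 was at least 1.5-fold higher. Among all genes of that comparison, 17.9% were past the fold, 528 lower and 176 higher, with a median log2 ratio of -0.25. Zeb2, a factor of late maturation, was at 1289 CPM in naive and 631 CPM in 14-day lung and Klf2 at 1105 and 455 CPM. Bach2 was at 804 and 433 CPM and Klf13 at 366 and 223 CPM. Tcf7, a factor of early cells, was at 41.4 and 63.5 CPM. Of the same 10 factors in blood, 2 were at least 1.5-fold lower at 14 days than in naive mice. There 3.59% of all genes were past the fold. Zeb2 was at 1900 CPM in naive and 1264 in 14-day blood and Bach2 at 529 and 316. Klf2 was at 809 and 822 CPM in blood, Klf13 at 264 and 240 and Tcf7 at 50.3 and 33.7.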

How the data were processed

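The authors deposited UMI counts per gene and hashtag for all barcodes (1743618, 1796296 and 1388825 in the naive, 6 h and 14-day libraries), made with Cell Ranger on GRCm38.p6, without normalization. The protocols name version 7.0.1 and the matrix header 7.1.0. The data came from the 10x 3′ kit, which is read from the end of the transcript.

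Barcodes with 800 to 5000 genes and at most 6% mitochondrial counts were kept, and tissue was assigned where 90% or more of tag counts came from 1 hashtag. This left 4.08, 2.08 and 2.44% unassigned. Doublets within a tissue stayed in. Counts were summed per library and tissue as CPM with exact Poisson intervals. Intervals of ratios are exact given the summed counts. A class with 0 counts was set at 3 counts. Shares of cells rest on cells with at least 3000 UMIs, thinned to 3000 (86, 75, 40, 20, 38 and 6 cells left out in naive lung and blood, 6 h lung and blood, 14-day lung and blood), with Clopper-Pearson intervals. The limit of free RNA was 3.02, 3.96 and 0.729% of counts, set by genes of non-NK cells as counted in empty droplets (barcodes of 100 counts or fewer).

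Genes named are the 4 members, the 6 most like each, and the listed genes with at least 50 CPM in a group, with genes named mt-, Rpl or Rps left out of the likeness (Fau, which encodes a ribosomal protein, stayed in). Zeb2, Klf2, Bach2, Klf13, Tcf7, Fos and Dusp1 are examples of listed genes chosen after their values were seen. So were Xcr1, Fcer1a, Ms4a2, C1qa, C1qb, Egr1, Egr3, Hspa1a and Hspa1b, which lie below 50 CPM in every group. Cxcr6, Tmem176b, Pmepa1 and other class genes are named because they set the classes. The members and lists were chosen with earlier results of these data known. No p-value is given for a time point or within a library, since each group was 1 library and cells are not replicates. Lung against blood over the 3 libraries was tested with edgeR 4.0.16 (R 4.3.3) on the summed counts of genes with at least 50 CPM in a group, with TMM scaling and 2 residual degrees of freedom. The calculations were tested on simulated data and run in Python 3.11.15 with numpy 2.4.6, scipy 1.17.1 and pandas 2.3.3. Positions are from GENCODE M21. Some listed genes are not reported here. Alternatives covered filters, hashtag rules, scaling, thinning, free RNA, doublets and cells left out.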

Additional observations from a re-analysis of the deposited data

Results flagged for a closer look

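The differences listed here point in opposite directions in 2 tissues or 2 libraries. None of these contrasts of differences was tested, since each group was 1 library. Xcl1 of 14-day over naive cells stood at 1.67 on the log2 scale in lung and at -0.27 in blood, and Ccl3 at 0.26 in lung and at -0.39 in blood. For lung over blood, Xcl1 had a log2 ratio of -0.64 in the naive and -0.50 in the 6 h library but 1.30 in the 14-day library. Ccl5 had 0.11 in the naive and 0.13 in the 6 h library but -0.63 in the 14-day library. Ccl3 had -0.10 in the naive and 0.55 in the 14-day library. Some of these values lay near the median of all genes. That median was -0.20 for 14-day over naive blood, beside -0.27 for Xcl1, and -0.07 for naive lung over blood, beside -0.10 for Ccl3. The sign of the Ccl3 ratio changed in 3 of 16 alternatives for naive lung over blood. For 14-day over naive lung it changed in 2 of 16.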

How the results depend on the processing

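Time points could be neither paired nor run without a replicate, since each was 1 library. For lung over blood over the 3 libraries, the fit with the library as replicate block passed 1054 genes, and without the block 535. Leaving out 1 library gave 208 to 2511 genes, the most without the 14-day library and the fewest without the naive one. The log2 ratios then lay between -0.0072 and 0.35 for Ccl3, 0.04 and 0.07 for Ccl4, -0.18 and 0.16 for Ccl5, and -0.52 and 0.48 for Xcl1. Of the alternative values of single results, such as ratios and shares of cells, 329 were classed as the same, 374 as moved and 3 as reversed. These counts leave out the fit over the 3 libraries. Without the 14-day library, its log2 ratios of Ccl3 (-0.0072), Ccl5 (0.16) and Xcl1 (-0.52) were also classed as reversed. A ratio was classed as moved where it left the counting interval of the main value. Of the counts of members past 1.5-fold, 114 of the alternative values were within 1.5 times the main count and 12 were not. The alternative floor of 20 CPM applied to the share of all genes only, so it could not change a count of members. With a fold of 2 the count was 0 in place of 1 in naive lung over blood, 6 h over naive lung, 6 h over naive blood and 14-day over naive blood, and 1 in place of 2 in 14-day lung over blood, which follows from the stricter limit. The count for 6 h lung over blood, 0, became 1 with at most 4% mitochondrial counts and 2 without cells with Fos or Egr1. That for 14-day over naive lung, 1, became 2 without cells with Fos or Egr1. The count for 14-day lung over blood, 2, became 1 with the mean CPM of single cells and 1 without the 5% of cells with most UMIs. Without cells with 2 or more UMIs of a marker list of another cell type, it became 0, and that for 6 h over naive blood, 1, became 0. The cause of these changes was not tested.

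The marker filter also turned Xcl1 of 14-day lung over blood from a log2 ratio of 1.30 to -0.43, and it brought Ccl5 of that comparison from -0.63 to -0.26. It left out 70.5 to 81.7% of cells in a group. Over all groups, 73.4% of cells held a UMI of Trbc1, 39.7% of Trbc2, 51.0% of Cst3, 22.2% of Ighm and 27.0% of Pecam1. Whether these came from the NK cells, from free RNA or from doublets was not tested. The filter used unthinned counts, so cells with more UMIs met it more readily. A filter on the rare markers alone, chosen after seeing the data, left out 2.26 to 5.56% of cells and gave 1.39 for Xcl1. Under the 16 alternatives to filters, scaling and cells, the log2 ratio of Xcl1 lay between -1.24 and -0.59 for naive lung over blood, 0.86 and 1.48 for 6 h over naive lung, 0.56 and 0.84 for 6 h over naive blood, and 0.80 and 1.87 for 14-day over naive lung. For 14-day lung over blood, Xcl1 was past 1.5-fold in 15 of them, Ccl5 in 9 and Ccl3 in 5. The log2 ratio of Ccl5 for 14-day over naive blood lay between 0.60 and 0.76. Without the 1% of cells highest in Ccl4, its log2 ratio of lung over blood was 0.25, 0.21 and 0.11 in the naive, 6 h and 14-day libraries, in place of 0.00, 0.04 and -0.07.

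With classes set from all UMIs, Ccl3 of cells with Cd27 and Itgam over cells with Itgam only in 14-day blood turned from -1.16 to 0.053 on the log2 scale. Ccl3 of cells with Itga1 and Pmepa1 in naive blood turned from 1.30 to -1.80, the former from 1 cell with 0 counts set at 3 counts, so no value of it is reported.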
